A study of Homo sapiens with 17 samples.

Results

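The sites of FOXA1 and of FOSL2 were compared in A549 cells, an established human lung carcinoma line, before the AP-1 inhibitor they carry was induced. The 4 peak lists came from chromatin immunoprecipitation with sequencing (ChIP-seq) of A549 cells with A-Fos integrated by piggyBac, a transposon vector, and with no doxycycline, 2 libraries with an antibody to FOXA1 and 2 with an antibody to Fra2, the protein of the FOSL2 gene. A-Fos is a dominant-negative Fos protein that binds the partners of Fos and keeps them off DNA, and all 4 lists come from cells that carry its gene uninduced. The labels call the libraries biological replicates, name no clone and do not say whether the cells are a pool of integrants. Lists used as further readouts were 2 FOXA1 and 2 FOSL2 lists from the same line after 48 h of doxycycline at 1 µg/mL, and 2 lists each of FOXA1, H3K9me3 and H3K27me3 from WT A549 cells with no treatment. The whole series holds 17 samples, of which 3 inputs were not analysed here. A region is a stretch covered by overlapping peaks of both lists of a factor on chromosomes 1 to 22 and X, and it was called shared where it overlapped a region of the other factor by at least 1 bp. This gave 6015 FOXA1 regions and 10190 FOSL2 regions, which formed 14505 sites, namely 1684 shared sites, 4316 sites of FOXA1 alone and 8505 sites of FOSL2 alone.

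FOXA1 is a forkhead pioneer factor, a protein that can bind its short DNA motif on nucleosomes and is needed in lung, liver and gut epithelium. FOSL2 is a Fos family subunit of AP-1, which binds DNA as a Fos-Jun pair at the palindrome TGANTCA and passes growth factor, stress and wound signals to genes. Both factors mostly occupy enhancers, which lie away from gene starts, and lists of their sites in epithelial cells commonly overlap.

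For the few sites of each class that had a summit in a promoter window, the window was searched for the AP-1 and forkhead motifs. A summit is the base of highest signal in a peak, and the promoter windows run from 250 bases before a gene's start to 50 after it (RefSeq, GRCh38.p14). Positions are counted from the start base as 0, and a motif is placed by its middle base. Capitals mark the AP-1 motif TGANTCA, which reads alike on both strands, and the forkhead motif TGTTTAC, which reads GTAAACA from the other strand. The first 4 windows come from shared sites, with MBNL2 (chr13:97141584-97141883, plus strand), ADGRF4 (chr6:47698330-47698629, plus strand) and C10orf90 (chr10:126521392-126521691, minus strand) as the strongest promoters that held summits of both factors, and CXCL8 (chr4:73740319-73740618, plus strand) as a classic AP-1 target.
MBNL2: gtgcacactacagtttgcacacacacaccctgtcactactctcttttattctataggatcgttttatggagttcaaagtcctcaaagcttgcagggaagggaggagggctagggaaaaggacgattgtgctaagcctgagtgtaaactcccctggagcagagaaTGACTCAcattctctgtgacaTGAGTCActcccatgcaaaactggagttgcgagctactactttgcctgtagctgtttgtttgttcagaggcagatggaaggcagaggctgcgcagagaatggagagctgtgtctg
ADGRF4: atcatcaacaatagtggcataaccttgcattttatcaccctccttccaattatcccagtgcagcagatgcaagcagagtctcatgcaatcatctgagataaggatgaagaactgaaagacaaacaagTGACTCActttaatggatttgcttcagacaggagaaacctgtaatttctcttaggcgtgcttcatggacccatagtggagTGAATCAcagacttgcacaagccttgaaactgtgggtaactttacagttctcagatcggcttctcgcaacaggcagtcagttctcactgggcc
C10orf90: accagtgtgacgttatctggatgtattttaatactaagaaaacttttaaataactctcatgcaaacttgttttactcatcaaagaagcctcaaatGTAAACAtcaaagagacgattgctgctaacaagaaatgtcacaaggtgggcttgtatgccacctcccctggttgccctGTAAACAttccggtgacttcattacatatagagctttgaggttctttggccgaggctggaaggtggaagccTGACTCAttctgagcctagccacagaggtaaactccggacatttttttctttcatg
CXCL8: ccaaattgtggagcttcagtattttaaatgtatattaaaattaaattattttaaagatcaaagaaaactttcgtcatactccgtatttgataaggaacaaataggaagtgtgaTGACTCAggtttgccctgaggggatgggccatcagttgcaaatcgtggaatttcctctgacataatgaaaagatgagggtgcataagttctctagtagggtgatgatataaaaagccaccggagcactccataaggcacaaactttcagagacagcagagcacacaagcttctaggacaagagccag

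At MBNL2, a splicing regulator, the AP-1 motifs stood at -83 and -62, the FOXA1 summits at -3 and -54, and the FOSL2 summits at -81 and -69. At ADGRF4, an adhesion G protein-coupled receptor, the FOXA1 summits at -120 and -122 stood on the upstream AP-1 motif at -120, while the FOSL2 summits at -60 and -23 lay on either side of the downstream one at -40. C10orf90 was the only window among these 4 with both motifs. Its FOXA1 summits at -79 and -88 lay nearest the forkhead match at -74. Its FOSL2 summit at -26 lay nearest the AP-1 match at -3, while the one at -38 lay about midway between these matches. At CXCL8, the neutrophil chemokine interleukin 8, the FOXA1 summits stood downstream of the window at 93 and 92 and the FOSL2 summits at -41 and 43, none of them on the AP-1 motif at -134.

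The next windows hold summits of FOXA1 and no FOSL2 region. PAPPA (chr9:116153541-116153840, plus strand) and FGD4 (chr12:32534072-32534371, plus strand) are shown because, of the 6 promoters of highest rank in this class, they were the ones with a forkhead match, a choice made after the matches were seen.
PAPPA: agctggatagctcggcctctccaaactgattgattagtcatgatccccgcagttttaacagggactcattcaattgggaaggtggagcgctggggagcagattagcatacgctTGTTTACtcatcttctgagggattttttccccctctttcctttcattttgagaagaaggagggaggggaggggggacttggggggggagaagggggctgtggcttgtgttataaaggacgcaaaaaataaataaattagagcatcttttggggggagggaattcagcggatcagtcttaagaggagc
FGD4: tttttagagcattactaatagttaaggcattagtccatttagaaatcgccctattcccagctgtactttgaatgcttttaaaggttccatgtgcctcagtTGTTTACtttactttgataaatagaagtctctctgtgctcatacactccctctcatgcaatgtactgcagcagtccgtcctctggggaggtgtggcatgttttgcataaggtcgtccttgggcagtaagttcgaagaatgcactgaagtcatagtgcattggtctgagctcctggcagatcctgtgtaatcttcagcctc

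At PAPPA, a protease that frees insulin-like growth factors, the forkhead match stood at -134 and the FOXA1 summits at -143 and -140. At FGD4, an activator of the small GTPase CDC42, the match stood at -147 and the summits at -152 and -144. The remaining 4 promoters of highest rank, those of ECT2, CBFA2T2, TBL1X and SMIM31, held neither motif as spelled here. One of the 2 FOSL2 lists had a peak at the PAPPA region and neither had one at FGD4.

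The last windows hold summits of FOSL2 and no FOXA1 region. They are KCNMA1 (chr10:77350712-77351011, minus strand), the strongest promoter of the class, ZBTB20 (chr3:114624896-114625195, minus strand), picked after the matches were seen for its single motif near the summit, and the promoter of the FOSL2 gene itself (chr2:28392608-28392907, plus strand).
KCNMA1: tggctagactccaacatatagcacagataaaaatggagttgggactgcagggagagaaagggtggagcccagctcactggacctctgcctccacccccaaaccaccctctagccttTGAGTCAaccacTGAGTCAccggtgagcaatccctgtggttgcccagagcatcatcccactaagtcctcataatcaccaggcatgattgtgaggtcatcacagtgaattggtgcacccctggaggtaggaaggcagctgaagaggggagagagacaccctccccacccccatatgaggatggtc
ZBTB20: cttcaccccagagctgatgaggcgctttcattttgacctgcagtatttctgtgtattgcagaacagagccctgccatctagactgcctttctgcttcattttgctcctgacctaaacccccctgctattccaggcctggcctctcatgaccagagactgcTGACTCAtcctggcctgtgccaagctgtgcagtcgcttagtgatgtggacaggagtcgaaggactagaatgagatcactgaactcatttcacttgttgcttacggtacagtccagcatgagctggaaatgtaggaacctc
FOSL2: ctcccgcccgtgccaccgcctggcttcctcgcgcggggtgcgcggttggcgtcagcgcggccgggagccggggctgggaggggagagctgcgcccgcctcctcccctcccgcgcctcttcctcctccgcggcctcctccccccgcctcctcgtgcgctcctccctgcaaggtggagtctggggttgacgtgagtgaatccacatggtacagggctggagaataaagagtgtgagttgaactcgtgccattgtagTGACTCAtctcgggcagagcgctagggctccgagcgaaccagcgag

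At KCNMA1, a calcium-activated potassium channel, the AP-1 motifs stood at -131 and -119 and the summits at -119 and -122. At ZBTB20, a zinc finger repressor, the motif stood at -87 and the summits at -84 and -83. At the FOSL2 gene's own start the motif stood at 7 and the FOSL2 summits at 12 and 8, with a fold enrichment of 9.22 and 3.93, at percentiles 66.1 and 37.9 of the lists.

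Motifs were also counted over all promoter windows with a summit, which include the windows shown above. The AP-1 motif was in 14 of 19 shared windows (73.7%, 95% exact interval 48.8% to 90.9%), in 3 of 42 windows of FOXA1 alone (7.14%, upper bound 19.5%) and in 72 of 81 windows of FOSL2 alone (88.9%, 80.0% to 94.8%), against 6.16% of all 22011 windows. The forkhead motif was in 3 of 19 shared windows (15.8%, 3.38% to 39.6%), in 17 of 42 of FOXA1 alone (40.5%, 25.6% to 56.7%) and in 2 of 81 of FOSL2 alone (2.47%, upper bound 8.64%), against 2.86% of all windows. For the AP-1 motif the interval of shared windows overlapped that of FOSL2 alone windows and lay above that of FOXA1 alone windows. For the forkhead motif the interval of shared windows overlapped those of both other classes. The 19 shared windows hold a summit of either factor, whereas windows of a single factor hold a summit of that factor. Of the 14 shared windows with a FOXA1 summit, 10 held the AP-1 motif and 3 the forkhead motif. Of the 15 with a FOSL2 summit, 13 held the AP-1 motif and 1 the forkhead motif. The shared, FOXA1 alone and FOSL2 alone windows came from 17, 41 and 76 genes. The intervals treat windows of the same gene as independent. C10orf90 was the single shared window that held both motifs. Both motifs stood in 45 of all windows and shared a base in none of them.

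The motifs also lay close to the summits. The middle of the nearest forkhead match was a median of 4 bp from a FOXA1 summit in the 17 windows of FOXA1 alone, and within 50 bp in 14 of them. The nearest AP-1 match was a median of 2 bp from a FOSL2 summit in the 72 windows of FOSL2 alone, and within 50 bp in 69. In shared windows the AP-1 match was a median of 30.5 bp from the FOXA1 summit, within 50 bp in 6 of 10, and a median of 11 bp from the FOSL2 summit, within 50 bp in 12 of 13. With the looser forkhead motif TNTTNAC, found in 26.3% of all windows, matches were in 63.2% of shared windows, in 83.3% of windows of FOXA1 alone and in 39.5% of those of FOSL2 alone. With FOSL2 library 1 in place of both FOSL2 libraries, AP-1 matches were in 39.0% of shared windows and in 66.4% of windows of FOSL2 alone. Without FOSL2 library 1 the forkhead share of shared windows was 6.25%, and without FOXA1 library 2 it was 10.5%. Most sites lie outside these windows, and motifs there were not searched.

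**Figure D1:**
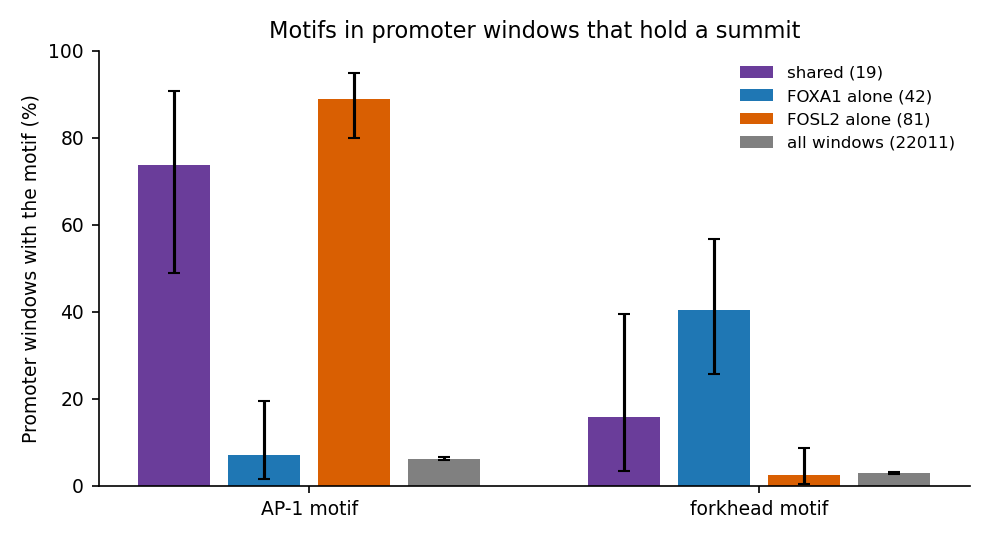
Share of promoter windows (%) with the AP-1 motif (left) and the forkhead motif (right), for windows with a summit of a shared site, of FOXA1 alone and of FOSL2 alone, and for all windows; bars are shares, lines 95% exact intervals, and the legend gives the number of windows. AP-1 matches were in 73.7%, 7.14% and 88.9% of the 3 classes and forkhead matches in 15.8%, 40.5% and 2.47%. Shared windows hold a summit of either factor.

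The lists differ in length, which sets how the shares can be read. The FOXA1 lists held 7633 and 13247 peaks and the FOSL2 lists 45586 and 14842, a mean of 10440 ± 3970 against 30214 ± 21739 (SD, n = 2 each). Both FOSL2 lists were longer than both FOXA1 lists (p = 0.333 in an exact two-sided permutation test of 2 against 2 libraries, which can go no lower). The authors' fold enrichment had a median of 5.74 and 6.34 in the FOXA1 lists and 6.40 and 4.50 in the FOSL2 lists. The lists carry no read counts, so the depth of each library is unknown and its part in list length was not tested. The first FOSL2 list was over 3 times the length of the second, so a region of both FOSL2 lists is mostly limited by the second.

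Of the 6015 FOXA1 regions, 1699 (28.2%, 95% exact interval 27.1% to 29.4%) overlapped a FOSL2 region. Of the 10190 FOSL2 regions, 1685 (16.5%, 15.8% to 17.3%) overlapped a FOXA1 region. The intervals cover counting error over regions alone, which are not replicates, and these shares are what the rule defines. The spread between libraries was far wider. Among FOXA1 peaks of single lists the share with a FOSL2 peak was 50.3% and 46.2% against FOSL2 list 1 (FOXA1 lists 1 and 2) and 23.0% and 20.6% against FOSL2 list 2. Among FOSL2 peaks the share with a FOXA1 peak was 8.40% and 13.4% in FOSL2 list 1 (against FOXA1 lists 1 and 2) and 11.8% and 18.4% in FOSL2 list 2. The second FOSL2 library decides the first share, which was 58.6% of FOXA1 regions without it. The FOSL2 share was 27.1% without FOXA1 library 1 and 7.74% without FOSL2 library 2. With the strongest 7633 peaks of each list, so that all lists were of equal length, the shares were 19.4% of FOXA1 regions and 17.0% of FOSL2 regions.

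The classes of a single factor were not all free of the other. Among FOXA1 regions, 1839 (30.6%) had a FOSL2 peak but no FOSL2 region, 1824 of them a peak of list 1 and 16 of list 2, and 2477 (41.2%) had no FOSL2 peak in either list. Among FOSL2 regions, 1184 (11.6%) had a FOXA1 peak but no FOXA1 region, 104 with list 1 and 1083 with list 2, and 7321 (71.8%) had none. A FOSL2 region without any FOXA1 peak was therefore the most frequent kind of site. Sites of FOXA1 alone and FOSL2 alone are named below by the rule, whether or not a single list of the other factor had a peak there.

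**Figure D2:**
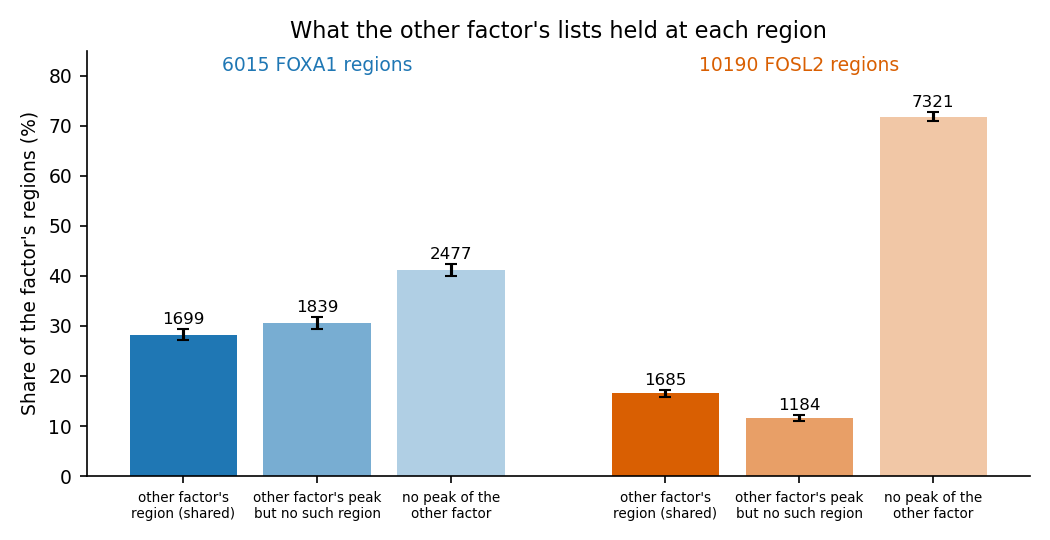
Share (%) of the 6015 FOXA1 regions (left) and of the 10190 FOSL2 regions (right) that overlapped a region of the other factor, held a peak of the other factor but no such region, or held no peak of it; lines are 95% exact intervals and numbers are regions. The shared class is 28.2% of FOXA1 and 16.5% of FOSL2 regions.

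Regions that overlapped mostly did so broadly, and few lay within 1 kb of one of the other factor without overlapping it. The overlap at shared sites had a median of 457 bp over FOXA1 regions and was never under 25 bp, and 6 regions overlapped by under 50 bp. The nearest region left out was 6 bp away, and 5 FOXA1 regions and 6 FOSL2 regions lay up to 50 bp from one of the other factor. Regions of FOXA1 alone lay a median of 46.6 kb from the nearest FOSL2 region, and regions of FOSL2 alone a median of 93.5 kb from the nearest FOXA1 region. Within 1 kb but not overlapping were 2.53% of FOXA1 regions and 1.73% of FOSL2 regions. Between 1 and 10 kb away were 13.0% and 9.62%, between 10 and 50 kb 21.8% and 19.0%, and over 50 kb 34.5% and 53.1%. At 15 shared sites 1 FOSL2 region spanned 2 FOXA1 regions, and at 1 site the reverse held. By chromosome the shared share of FOXA1 regions ran between 18.2% on chromosome 4 (47 of 258) and 37.3% on chromosome 19 (28 of 75), and that of FOSL2 regions between 10.7% on chromosome 18 (24 of 225) and 20.8% on chromosome 7 (112 of 539).

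At shared sites the summits of both factors lay close but not on the same base. The distance between the strongest FOXA1 summit and the strongest FOSL2 summit had medians of 59, 70, 62 and 71 bp over the 1684 sites in the 4 pairs of lists (mean 65.5 ± 5.92, SD of the 4 pair medians, which share libraries). The distance between the 2 lists of one factor at the same sites, which is the replicate error of a summit, had medians of 12 bp for FOXA1 and 14 bp for FOSL2. All 4 medians between factors exceeded both medians within a factor. Summits lay within 50 bp of each other at 38.4% to 45.7% of sites between factors, and at 83.5% of sites between FOXA1 lists and 85.7% between FOSL2 lists. They lay over 200 bp apart at 19.1% to 21.1% of sites between factors, against 4.16% and 3.03% within FOXA1 and within FOSL2.

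Shared sites ranged between coincident and separate summits. All 4 pairs of lists placed the summits within 50 bp at 466 sites (27.7%) and over 100 bp apart at 463 sites (27.5%). The gap between factors exceeded the gap between the replicates of either factor at 937 sites (55.6%). At the 799 sites where both factors had summits reproduced to 25 bp, the median distance between factors was 48 bp. Over 4 groups of sites of about equal number, ordered from narrow to wide, the median distance was 38, 55.8, 85.8 and 186 bp. Ordered by rank of enrichment, low to high, it was 98.5, 61, 61 and 50 bp. The width of a site also limits how far apart its summits can lie.

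**Figure D3:**
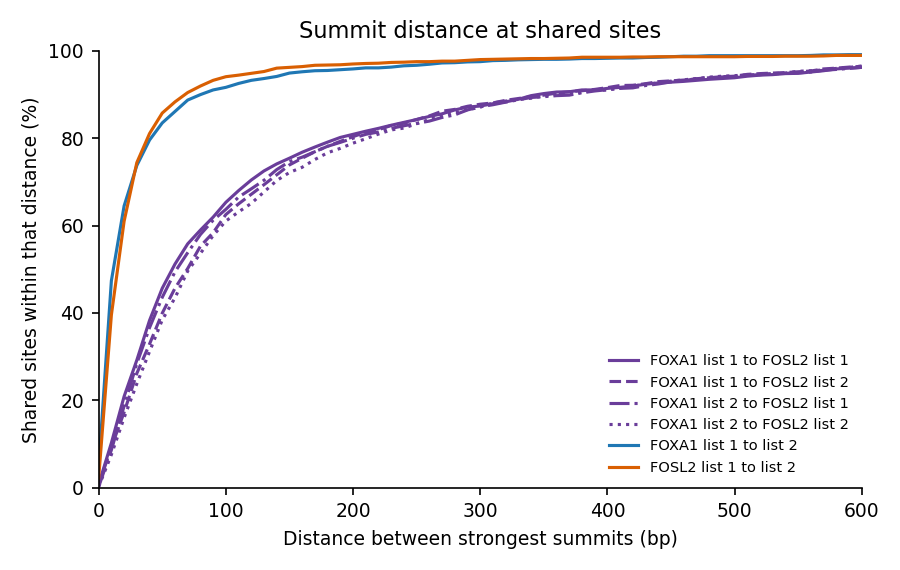
Cumulative share (%) of the 1684 shared sites by the distance between strongest summits in bp, for the 4 pairs of a FOXA1 and a FOSL2 list and for the pair of lists of each factor. The curves between factors reach 50 bp at 38.4% to 45.7% of sites, and those within a factor at 83.5% and 85.7%.

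Shared sites had wider and stronger peaks of each factor than sites of that factor alone. The median width was 534 bp at shared and 454 bp at alone FOXA1 regions, and 631 bp at shared and 535 bp at alone FOSL2 regions. Strength is given as the percentile of a region's fold enrichment within its list. The median percentile of FOXA1 enrichment was 66.2 at shared sites and 58.5 at sites of FOXA1 alone in list 1, and 80.5 and 73.6 in list 2. The median percentile of FOSL2 enrichment was 90.1 at shared sites and 87.2 at sites of FOSL2 alone in list 1, and 72.3 and 64.1 in list 2. The quartiles overlapped widely, with shared FOXA1 regions between percentiles 41.2 and 86.0 of list 1 and regions of FOXA1 alone between 38.3 and 77.9. Regions of a factor alone include some with a peak of the other factor but no region of it. These had a median of 61.8 and 77.4 for FOXA1 and 89.2 and 70.7 for FOSL2. Regions with no peak of the other factor had a median of 55.7 and 71.2 for FOXA1 and 86.8 and 63.0 for FOSL2. The former thus stood between shared regions and the latter. Wider regions also have more bases at which to overlap another, and the part of width in these shares was not tested.

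The share of shared regions followed the factor's own strength unevenly. By decile of FOXA1 enrichment it was 27.1% in the lowest, 20.3% in the third and 44.9% in the highest (270 of 602, 95% exact interval 40.8% to 48.9%). By decile of FOSL2 enrichment it was 10.7% in the lowest and 26.0% in the highest (265 of 1019, 23.3% to 28.8%). Median widths were 393 and 662 bp in the lowest and highest FOXA1 decile and 454 and 668 bp in the FOSL2 ones. At the shared sites themselves the strengths of both factors hardly moved together. Spearman's rho between the FOXA1 and FOSL2 percentile over the 1684 sites was 0.0250 to 0.106 in the 4 pairs of lists, while it was 0.861 between the FOXA1 lists and 0.830 between the FOSL2 lists, a description across sites that share their libraries. The gap in FOXA1 percentile between shared and alone sites, 7.32 as a mean over the lists, was 15.4 without FOXA1 library 1 and 18.4 without FOXA1 library 2. The gap in FOSL2 percentile, 5.57 as a mean over the lists, was 25.6 without FOSL2 library 1 and 26.0 without FOSL2 library 2.

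**Figure D4:**
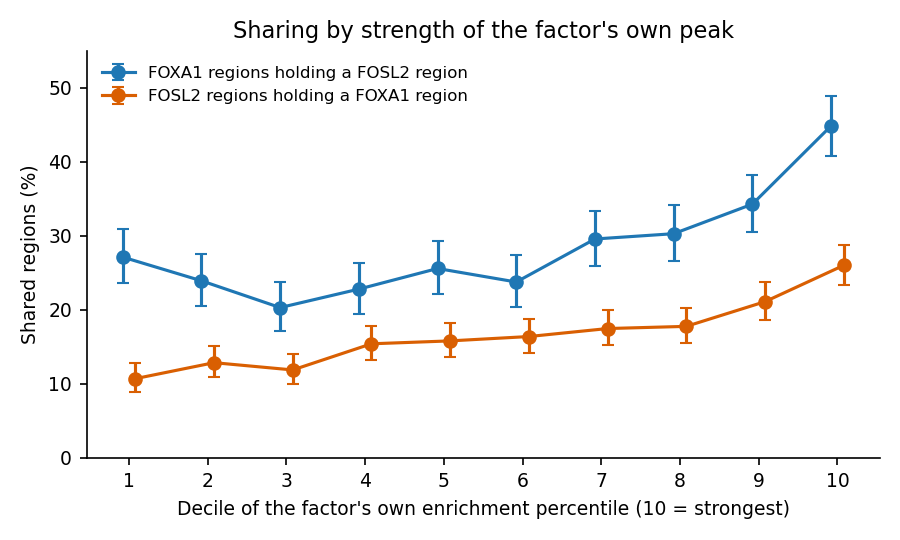
Share (%) of FOXA1 regions that held a FOSL2 region, and of FOSL2 regions that held a FOXA1 region, by decile of the factor's own mean percentile of enrichment (10 is the strongest); points are shares and lines 95% exact intervals. The share is 44.9% in the top FOXA1 decile and 26.0% in the top FOSL2 decile.

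The shared site of highest rank lay on chromosome 11 (29281930 to 29282804), 727 kb from KCNA4, a potassium channel, with a FOXA1 fold enrichment of 36.6 and 67.4 and a FOSL2 fold enrichment of 127 and 30.2. At the shared site 32.2 kb from ZNF281, a zinc finger regulator, the summits lay 1 bp apart, and the enrichment was 43.1 and 111 for FOXA1 and 39.4 and 20.3 for FOSL2. The shared site 159 kb from NR3C1, the glucocorticoid receptor, spanned 1929 bp on chromosome 5 (143594859 to 143596787), and its strongest summits lay 1126 bp apart. Others were nearest DAD1, PSG1, ZNF507 and TCP11L2, and inside FGF1, a fibroblast growth factor, where the summits lay 10.5 bp apart.

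The strongest site of FOXA1 alone lay inside ITPR2, an inositol trisphosphate receptor, with a fold enrichment of 99.9 and 151 and a FOSL2 peak in 1 list. The site of FOXA1 alone at SPINK1, a secreted trypsin inhibitor, lay inside the gene, 3.44 kb from its start, with 54.4 and 131, and neither FOSL2 list had a peak there. Others lay inside TRIM34 and nearest SLC38A2, BICC1, CIBAR1, COL12A1 and PAPPA, and 5 of the 8 sites named had a FOSL2 peak in 1 list. The strongest sites of FOSL2 alone included some inside KCNH1, a potassium channel, with 108 and 33.4, HSD17B12, a fatty acid and steroid enzyme, with 124 and 29.8, and BMPER, a BMP binding protein, with 88.0 and 33.2. No FOXA1 list had a peak at these 3, while the sites nearest FSCB, ANKRD10, CRADD and SHTN1 had one in 1 FOXA1 list and that nearest ACTBL2 in none.

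All classes lay mostly away from gene starts. Within 1 kb of the start of a protein-coding gene lay 2.91% of all FOXA1 regions and 3.15% of all FOSL2 regions. The share was 2.06% of shared regions and 3.24% of regions of FOXA1 alone, a difference of -1.18 percentage points (95% Newcombe interval -1.99 to -0.254), with the same sign in all 4 pairs of lists. It was 2.14% of shared regions and 3.35% of regions of FOSL2 alone, a difference of -1.21 (-1.93 to -0.330), again with the same sign in all 4 pairs. With lists of equal length the FOXA1 difference was -2.03. Shared sites were thus at gene starts less often than sites of either factor alone, in regions and in every pair of lists. The pairs share libraries and are not independent, and the intervals cover counting error over regions alone. Without FOSL2 library 1 the difference for FOSL2 was -0.405 and its interval held 0, and with 200 bp around each summit it was -1.03 and no longer had the same sign in every pair of lists.

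The other contexts were not called by the same rule over both libraries. Inside genes lay 45.3% of shared and 46.5% of alone FOXA1 regions, and 45.2% of shared and 46.8% of alone FOSL2 regions, and both intervals of the difference held 0. Outside genes but within 50 kb lay 25.3% of shared and 23.0% of alone FOXA1 regions, and 25.2% of shared and 26.2% of alone FOSL2 regions. The FOXA1 difference, 2.29 points with an interval that held 0 (-0.0917 to 4.74), met the call without FOXA1 library 1 (2.58), without FOXA1 library 2 (3.51) and without FOSL2 library 2 (2.98). The FOSL2 difference, -0.986, was -2.85 and met the call without FOXA1 library 1. Over 50 kb from any gene lay 27.4% of shared and 27.3% of alone FOXA1 regions, and 27.4% of shared and 23.7% of alone FOSL2 regions. The last difference, 3.74 points (1.47 to 6.09), had the same sign in only 2 of 4 pairs of lists, and it was -1.28 without FOSL2 library 1. Set against each other, regions of FOXA1 alone lay over 50 kb from genes 3.66 points more often than regions of FOSL2 alone (2.06 to 5.28) while outside genes within 50 kb the difference was -3.25 (-4.80 to -1.67). The pairs of lists were not compared for these differences.

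**Figure D5:**
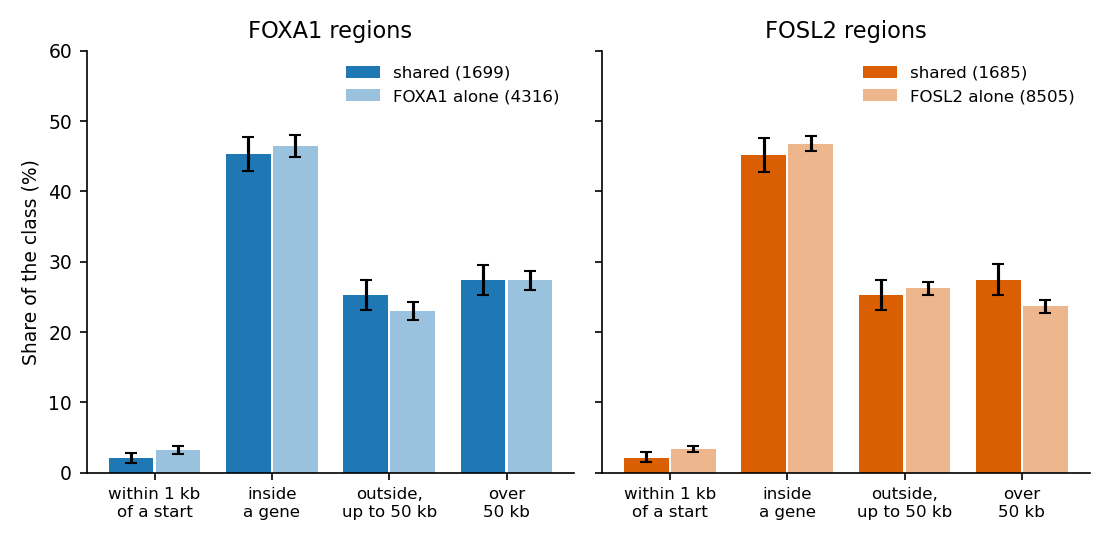
Share (%) of FOXA1 regions (left) and FOSL2 regions (right) within 1 kb of a gene start, inside a gene, outside genes up to 50 kb away and over 50 kb away, for shared regions and regions of the factor alone; bars are shares, lines 95% exact intervals, and legends give the number of regions. At gene starts the shares are 2.06% and 3.24% for FOXA1 and 2.14% and 3.35% for FOSL2.

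Further lists, which the rule did not use, were set against the classes. In WT cells both FOXA1 lists had a peak at 99.6% of shared and 99.1% of alone FOXA1 regions, a difference of 0.574 points that was 8.17 without FOXA1 library 1 and 15.2 without FOXA1 library 2. At FOSL2 regions both WT FOXA1 lists had a peak at 99.5% of the shared and 34.8% of the alone ones (95% exact interval 33.8% to 35.9%), and at 25.7% of those with no FOXA1 peak in the uninduced lists. Shared FOSL2 regions were defined by uninduced FOXA1 peaks, so FOXA1 lists at FOSL2 regions measure the same factor again in other libraries. The WT FOXA1 lists are longer, with 49448 and 80318 peaks, and neither the role of list length nor that of the A-Fos gene in these extra peaks was tested. After doxycycline both FOXA1 lists had a peak at 39.0% of shared and 59.0% of alone FOXA1 regions, a difference of -20.0 points (-22.7 to -17.3), and at 67.7% of those with no FOSL2 peak. The difference was -9.19 without FOXA1 library 1 and -9.89 without FOXA1 library 2. The induced FOXA1 lists held 11112 and 15065 peaks. Shared regions had the higher FOXA1 percentiles in the uninduced lists. The part of strength or of list length in the share with induced peaks was not tested. At FOSL2 regions both doxycycline FOXA1 lists had a peak at 38.7% of shared and 0.976% of alone ones. Both doxycycline FOSL2 lists, which held 1854 and 5274 peaks, had a peak at 4 of 1685 shared and 5 of 8505 alone FOSL2 regions.

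The repressive marks covered few sites of any class. Both H3K27me3 lists of WT cells covered 0.353% of shared and 1.25% of alone FOXA1 regions, a difference of -0.898 points (-1.32 to -0.391), and 0.237% of shared and 2.35% of alone FOSL2 regions, a difference of -2.11 (-2.49 to -1.64). Both H3K9me3 lists covered 14 of 1699 shared and 56 of 4316 alone FOXA1 regions, with an interval of the difference that held 0 (-0.981 to 0.155), and 1.36% of shared and 2.53% of alone FOSL2 regions, a difference of -1.16 (-1.74 to -0.419). The intervals cover counting error over regions alone, and the pairs of lists were not compared for the marks. Over regions of both lists, shared sites carried H3K27me3 less often than sites of either factor alone. The size of these differences moved with the libraries. The H3K27me3 difference at FOXA1 regions was -2.13 without FOXA1 library 1 and -3.45 without FOXA1 library 2. Without FOXA1 library 1 and without FOXA1 library 2 the H3K9me3 difference at FOXA1 regions was -1.58 and -3.00 and its interval lay below 0. Without FOSL2 library 1 and without FOSL2 library 2 the differences at FOSL2 regions were -9.56 and -5.94 for H3K27me3 and -7.80 and -3.41 for H3K9me3. Where either list of a mark sufficed, H3K27me3 differed by -2.13 at FOXA1 and -3.25 at FOSL2 regions and H3K9me3 by -2.39 at FOSL2 regions. The marks come from WT cells, and the factor lists from the A-Fos line.

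Of 19970 protein-coding genes, 1635 (8.19%) had a shared region within 50 kb, 3530 (17.7%) a region of FOXA1 alone and 7151 (35.8%) a region of FOSL2 alone, and 10835 had none of these. Both kinds of single-factor region, with no shared one, lay near 1500 genes, and all 3 classes near 498. Without FOXA1 library 1 the counts were 2463 for shared and 6565 for FOXA1 alone, and without FOSL2 library 2 they were 2957 for shared, 2340 for FOXA1 alone and 15529 for FOSL2 alone. Long genes collect more regions. PDE4D, a cyclic AMP phosphodiesterase gene of 1553 kb, had the most shared regions (9, with 14 of FOXA1 alone and 16 of FOSL2 alone), followed by NSMCE2, VMP1 and VTI1A with 5 and ANXA2, a membrane-binding annexin gene of only 50.8 kb, with 4. MACROD2 (2058 kb) had 23 regions of FOXA1 alone, 1 shared and 4 of FOSL2 alone. NRG1, the growth factor neuregulin, had 12 of FOXA1 alone and 13 of FOSL2 alone with 1 shared, while ATXN1 had 12 and ASIC2 11 of FOSL2 alone, with 2 and 0 of FOXA1 alone.

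The genes FOXA1, FOSL2, JUN and FOS had no shared region within 50 kb. FOXA1 had 1 region of FOXA1 alone 42.1 kb away (chromosome 14, 37546726 to 37547404), with a fold enrichment of 19.4 and 48.7 and a FOSL2 peak in 1 list. FOSL2 had the region at its start shown above and another of FOSL2 alone 28.5 kb away. JUN, the usual Fos partner, had 1 region of FOXA1 alone 31.1 kb away and 1 of FOSL2 alone 24.9 kb away, and FOS had none. Among the 17 AP-1 family genes, 1 (5.88%) had a shared region, 6 (35.3%) a region of FOXA1 alone and 11 (64.7%) a region of FOSL2 alone, beside 8.19%, 17.7% and 35.8% of all genes. The shared one lay inside BATF, a partner of Jun in lymphoid cells, and ATF3, a stress-induced member, had 3 regions of FOSL2 alone, the strongest with a fold enrichment of 31.4 and 9.35.

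Among 28 lung epithelial genes, 6 (21.4%) had a shared region, 11 (39.3%) one of FOXA1 alone and 12 (42.9%) one of FOSL2 alone, beside 8.19%, 17.7% and 35.8% of all genes. EHF, an epithelial ETS factor, had 2 shared regions, of which one inside the gene spanned 2587 bp with FOXA1 enrichment of 9.29 and 13.0 and FOSL2 enrichment of 104 and 18.6 and summits 1106 bp apart. The keratin genes KRT8 and KRT18 lie side by side and shared a single such region, with 10.9 and 9.91 for FOXA1 and 24.5 and 5.07 for FOSL2 and summits 24 bp apart. GRHL2, a grainyhead regulator of epithelial junctions, had 3 regions of FOXA1 alone and 5 of FOSL2 alone. The strong FOXA1 site at SPINK1 lay 42.7 kb from SCGB3A2, a secretoglobin of airway cells.

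Among 18 genes of FOXA partners and foregut, 1 (5.56%) had a shared region, 5 (27.8%) one of FOXA1 alone and 7 (38.9%) one of FOSL2 alone, beside 8.19%, 17.7% and 35.8% of all genes. The shared one lay 24.8 kb from SOX9, a progenitor factor, and was weak for FOXA1 (5.01 and 5.01) and strong for FOSL2 (35.6 and 9.38). Sites of FOXA1 alone lay inside ONECUT2 and TF, which encodes transferrin. Sites of FOSL2 alone lay within 50 kb of GATA6 and FOXA2, both endoderm regulators.

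Among 38 AP-1-linked genes of matrix, adhesion, proteases and growth factors, 8 (21.1%) had a shared region, 12 (31.6%) one of FOXA1 alone and 25 (65.8%) one of FOSL2 alone, where all genes gave 8.19%, 17.7% and 35.8%. ANKRD1, a target of Hippo and AP-1 signals, had a shared region over its start with FOXA1 enrichment of 15.9 and 36.8 and FOSL2 enrichment of 25.3 and 9.63. CXCL8 had one over its start with FOXA1 enrichment of 22.8 and 38.3 and FOSL2 enrichment of 17.1 and 3.98. EGFR, the epidermal growth factor receptor gene, had 3 shared regions, 1 of FOXA1 alone and 3 of FOSL2 alone. ITGB6, an epithelial integrin, had a site of FOSL2 alone with enrichment of 88.7 and 24.8. CCN2, a matrix growth factor gene, had a site of FOXA1 alone of 21.8 and 31.1 with no FOSL2 peak.

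Among 14 MAPK feedback genes, 5 (35.7%) had a shared region, 5 (35.7%) one of FOXA1 alone and 6 (42.9%) one of FOSL2 alone, against 8.19%, 17.7% and 35.8% of all genes, which hold for the next 2 lists too. SPRED2, an inhibitor of Ras-ERK signalling, had a shared region over its start with FOXA1 enrichment of 3.48 and 5.61 and FOSL2 enrichment of 88.4 and 22.8. The shared region 46.9 kb from PHLDA1 showed the same contrast, with 3.12 and 4.65 for FOXA1 and 48.2 and 27.3 for FOSL2. Regions of FOXA1 alone had stronger FOXA1 enrichment, with 18.6 and 36.7 inside SPRED2 and 11.7 and 28.3 near PHLDA1. The shared region 9.43 kb from DUSP5 had the reverse contrast in the second list of each factor only. Its fold enrichment was 7.27 and 13.1 for FOXA1 and 8.50 and 2.47 for FOSL2. Its FOXA1 enrichment was at percentiles 65.6 and 83.0 and its FOSL2 enrichment at percentiles 62.8 and 1.03. ERRFI1, an EGFR inhibitor, had 2 shared regions. Among 16 targets of NRF2, the oxidative stress regulator, 5 (31.2%) had a shared region, 8 (50.0%) one of FOXA1 alone and 10 (62.5%) one of FOSL2 alone. Of the 5, 3 are the neighbouring AKR1C1, AKR1C2 and AKR1C3, which each had 3 shared regions and the same strongest one. Among 10 steroid response genes none had a shared region, 2 (20.0%) had one of FOXA1 alone and 8 (80.0%) one of FOSL2 alone, including ZBTB16 and ANGPTL4.

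Genes of other cell types and genes used in every cell were counted beside the same 8.19% shared, 17.7% FOXA1 alone and 35.8% FOSL2 alone of all genes. Among 12 housekeeping genes 1 (8.33%) had a shared region, 2 (16.7%) one of FOXA1 alone and 4 (33.3%) one of FOSL2 alone. Among 10 blood markers none had a shared region, 2 (20.0%) had one of FOXA1 alone and 1 (10.0%) one of FOSL2 alone. Among 10 neuron and muscle markers 3 (30.0%) had a shared region, namely SNAP25, DES and RBFOX3, 2 (20.0%) one of FOXA1 alone and 4 (40%) one of FOSL2 alone. Among 11 fibroblast and endothelial markers none had a shared region, 3 (27.3%) had one of FOXA1 alone and 5 (45.5%) one of FOSL2 alone. A region within 50 kb of a gene need not act on it, and peak lists say nothing of whether a gene was expressed.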

How the data were processed

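ChIP-seq peak lists, 1 per library, were compared in A549 cells that carry A-Fos without doxycycline. The submitters' processing notes name fastp 0.23.2, BWA 2.2.1, SAMtools 1.8, deepTools, DRAGEN and MACS2 and the build hg38, without the order or settings of the tools. The deposited lists give, for each peak, the authors' fold enrichment (a ratio over background), a score, the −log10 of the p-value and q-value, and the summit offset. The largest q in each of the 4 lists was near 0.05. Peaks were called per library, not on pooled samples. Depth is not in the lists, so no interval from read counts is given.

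Peaks off chromosomes 1 to 22 and X were left out (72 and 107 for FOXA1, 184 and 126 for FOSL2). Overlapping peaks of the 2 lists of a factor were merged into regions, and a region was kept where both lists contributed. Fold enrichments were used as percentiles within a list. Gene intervals and starts came from RefSeq tables (GRCh38.p14, 19970 protein-coding genes, of which 15811 had a listed start; both ends were used for the rest). Exons and introns were not distinguished. A context difference was called where its 95% Newcombe interval excluded 0 and its sign was the same in all 4 pairs of lists. A site of several regions took the strongest summit.

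Named are, per class, the 8 regions of highest mean percentile (each nearest gene once), up to 6 promoters with a summit of both lists, the 5 genes with most regions, up to 4 members per gene list, and FOXA1, FOSL2, FOS and JUN; some genes the rule named are not reported here. Members, rules and the 11 gene lists were chosen with earlier results of these data known. The labels give only replicate numbers, with no sign that libraries of the same number were prepared together. Interval, overlap, distance and motif functions were tested on simulated data. Python 3.11.15 with pandas 2.3.3, SciPy 1.17.1 and NumPy 2.4.6 was used. Alternatives were other peak thresholds, lists of equal length, other overlaps and windows, 200 bp around summits, other motifs, stricter single-factor sites and each library left out.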

Additional observations from a re-analysis of the deposited data

Results flagged for a closer look

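The share of peaks inside genes differed in sign between the factors across single lists. For FOXA1 peaks, shared minus alone lay between -0.805 and -0.381 percentage points in the 4 pairs of lists, so that shared peaks were inside genes less often in all 4. For FOSL2 peaks the same difference lay between 0.232 and 1.24 points, so that shared peaks were inside genes more often in all 4. The difference between the factors was not tested, and the pairs share libraries. Over regions of both lists the differences were -1.13 for FOXA1 and -1.54 for FOSL2, with intervals that held 0. They were -0.357 and 1.11 without FOSL2 library 1, -1.70 and 0.287 without FOSL2 library 2, and 0.158 and -0.207 with 200 bp around each summit.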

How the results depend on the processing

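The 33 results gave 241 values under 20 alternatives, of which 183 were counted as unchanged. Differences with a call had to keep direction and call, and peak numbers their direction. Shares of regions, summit distances and rank gaps had to move within the spread between lists. Gene counts had to stay within a set ratio of the main count, and motif shares within the main exact interval. Leaving out each of the 4 libraries in turn gave FOXA1 shares of 21.1% to 58.6%, FOSL2 shares of 7.74% to 27.1%, summit distances of 63.5 to 68.5 bp, FOXA1 rank gaps of 7.56 to 18.4 and FOSL2 rank gaps of 5.69 to 26.0, and 1608 to 2957 genes for shared, 2340 to 6565 for FOXA1 alone and 6745 to 15529 for FOSL2 alone regions. In percentage points the context differences ran, for FOXA1, between 1.90 and 3.51 near genes (called in 3 of the 4) and between -1.93 and 0.123 far from them, and for FOSL2 between -1.30 and -0.405 at starts, -1.78 and 1.11 inside genes, -2.85 (called) and 0.572 near genes and -1.28 and 5.16 far from them. For the other readouts they ran between 0.391 and 15.2 for WT FOXA1 at FOXA1 regions, between 0.0735 and 0.301 and between 0.0849 and 0.193 for doxycycline FOSL2 at FOXA1 and at FOSL2 regions, and between -3.00 and -0.194 for H3K9me3 at FOXA1 regions. AP-1 shares ran between 39.0% and 87.5% in shared windows and between 66.4% and 91.3% in those of FOSL2 alone. With the upper 50% of each list the FOSL2 share was 12.3%, the summit distance 54.5 bp, shared genes 910 and the far difference for FOSL2 4.82, now called. With lists of 7633 peaks each that difference was 4.41, also called, with 1001 shared and 4545 FOSL2 alone genes. With 200 bp around summits the FOXA1 differences inside and far from genes reversed to 0.158 and -0.0910, the start difference for FOSL2 was -1.03 and no longer called, and the FOXA1 rank gap was 8.34. Starts of 2.5 kb and 5 kb gave near differences for FOXA1 of 2.83 and 3.32, now called, and 5 kb reversed that for FOSL2 to 0.860. Sites free of any peak of the other factor gave 3.37 for the same FOXA1 difference, now called, and a rank gap of 9.94, and either end of every gene, an alternative chosen after seeing the data, gave 2.51. Windows of 10 kb gave 850, 1931 and 3701 genes, and of 100 kb 2637 shared and 5356 FOXA1 alone genes. The motif TNTTNAC gave 63.2%, 83.3% and 39.5%. The causes were not tested. Leaving out libraries was added after seeing the data for ranks, readouts, motifs and peak numbers.

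With the replicate block, comparing lists of the same replicate number only, the shares were 35.4% for FOXA1 and 13.4% for FOSL2 and the summit distance 65.0 bp; the block was run for these 3 values, which carry no call, and the labels do not say that a number marks a shared preparation. Depth is unknown, and the 2 libraries per factor limit every statement about a factor.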
